A study of Mus musculus with 4 samples.

Results

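The EGR and NR4A genes encode transcription factors that T cells switch on within an hour or so of antigen receptor engagement. They were followed here with NAB1 and NAB2, the proteins that bind EGR factors and hold back their activity. The members were all probe sets of the array annotated to Egr1, Egr2, Egr3, Nr4a1, Nr4a2, Nr4a3, Nab1 or Nab2 alone, without regard to their values. These were 12 probe sets for 8 genes, of 22690 probe sets in all. The 4 Affymetrix arrays measured RNA of CD4 cells from wild type (+/+, 2 arrays) and sanroque (san/san, 2 arrays) mice. Sanroque mice are homozygous for a recessive mutation made with the mutagen ENU in C57BL/6 males. Sanroque is known as a mutation of Rc3h1, the gene of the RNA-binding protein Roquin-1, and its carriers were found by a screen for antinuclear autoantibodies. No treatment of the cells and no age or sex of the mice on the arrays is given in the sources used here. In the experiment record of wild type array 2 the sample is noted as CBA, with no explanation in the labels. An effect of strain background and the mutation therefore cannot be told apart.

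EGR1, EGR2 and EGR3 share a zinc finger domain that binds GC-rich DNA. In T cells EGR2 and EGR3 are known for restraining activation and for the unresponsive state called anergy, and for supporting follicular helper differentiation. NR4A1 (also called Nur77), NR4A2 and NR4A3 are orphan nuclear receptors, and Nr4a1 is widely used as a reporter of antigen receptor signal strength. Both families are immediate early genes like Fos and Jun, but their promoters take different routes. Egr promoters are driven through serum response factor (SRF) and its ETS partners downstream of ERK, and Nr4a promoters through CREB-type sites and through MEF2 factors responding to calcium.

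The promoters of the 3 genes with the largest differences among the tested members are shown first, from RefSeq (build GRCm38.p6) as the 250 bases before a transcription start, 5′ to 3′ on the gene's strand. Capitals mark the CRE-like element TGCGTCA in Nr4a1, the CRE core TGACG (or its complement) in Nr4a2, and in Egr2 a CArG box, the site of SRF, with the ETS core CCGGAA, of which the first occurrence is a palindrome that reads the same on both strands.
Nr4a1, chr15:101266596-101266845, plus strand: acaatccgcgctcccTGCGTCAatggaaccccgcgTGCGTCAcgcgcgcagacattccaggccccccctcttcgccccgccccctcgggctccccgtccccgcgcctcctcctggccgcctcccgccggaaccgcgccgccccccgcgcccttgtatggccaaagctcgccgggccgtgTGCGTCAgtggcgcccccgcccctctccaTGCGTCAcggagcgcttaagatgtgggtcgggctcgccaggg
Nr4a2, chr2:57124004-57124253, minus strand: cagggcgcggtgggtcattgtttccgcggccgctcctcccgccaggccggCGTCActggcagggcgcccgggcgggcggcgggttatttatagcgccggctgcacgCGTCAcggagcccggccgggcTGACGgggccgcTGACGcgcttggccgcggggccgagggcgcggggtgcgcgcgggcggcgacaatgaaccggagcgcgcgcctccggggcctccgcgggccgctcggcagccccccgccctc
Egr2, chr10:67537316-67537565, plus strand: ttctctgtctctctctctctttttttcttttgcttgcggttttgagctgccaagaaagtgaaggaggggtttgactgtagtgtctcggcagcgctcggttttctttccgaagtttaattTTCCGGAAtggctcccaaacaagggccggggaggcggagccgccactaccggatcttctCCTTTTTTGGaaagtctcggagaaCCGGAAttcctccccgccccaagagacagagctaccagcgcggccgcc

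The Nr4a1 window holds TGCGTCA at 4 places, which begin 235, 215, 71 and 42 bases before the start, whereas 1.75% of 32851 windows in the table hold it at all. Each of these contains the complement of TGACG, so the 4 matches to TGACG in this window are the same places. The Nr4a2 window holds TGACG at 4 places, as does that of Nr4a3, and 17.8% of windows hold it. Outside the NR4A genes, TGACG occurs at 2 places in the windows of 3 Egr2 starts. These 3 windows overlap, and the 2 places are the same stretches of DNA in each. It also occurs at 1 place in Nab1, where it lies in the only other TGCGTCA among the members. The Egr2 window has a CArG box 72 bases before the start, a motif found in 1.47% of windows, and CCGGAA at 3 places (12% of windows), of which 2 lie in the palindrome; the Nr4a1 window holds CCGGAA too, at 1 place. RefSeq lists 5 starts for Egr2, and the windows of 4 of them hold a CArG box. The 3 overlapping windows share 1 such box, which is not the box of the window shown. Only the window shown holds CCGGAA. That window was picked as the first by position to hold both motifs, and it has no TGACG. No window of Nr4a1, Nr4a2, Nr4a3, Nab1 or Nab2 holds a CArG box. The EGR site GCGTGGGCG was found at 2 places in the Nab1 window and in 0.536% of all windows, and its variant GCGGGGGCG at 1 place each in Nab1 and Nr4a1 (2.57%). The NR4A site AAAGGTCA (1.34% of windows) and the full CRE TGACGTCA (1.55%) were in no member's window. Both strands were searched, and MEF2 sites were not sought. A match is a description of the sequence and not a binding site shown in these cells, and Egr1 and Egr3 had no window in the table.

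The deposited signals were already on a common scale, with trimmed means between 99.59 and 99.97 and medians between 30.8 and 40.4. Numbers 1 and 2 of each genotype were hybridised on the same 2 days, so each difference could also be read within a day. The label was checked by Cd4, which had signals of 533.3 and 613.5 in wild type and 585.9 and 570.2 in sanroque. Its second probe set read 277.2 and 254.7 against 211.1 and 237.4, both sanroque arrays lower, without passing (-0.24, limma adjusted p = 0.751). None of 10 measured CD4 T cell markers passed the test. Whether the 2 arrays of a genotype come from separate mice is not stated, and p-values therefore reflect only the spread between these samples, which could be technical. Their number limits the precision of every value.

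Of the 12 member probe sets, 9 had a mean signal above the filter of 21.3 and were tested, for 7 genes. Nr4a3 and the dimmer Nr4a2 probe set lay below it. By limma, with p adjusted over all 13579 tested probe sets after Benjamini and Hochberg, 1 of the 9 passed at 0.05, the Egr2 probe set 1427683_at, which was higher in sanroque. Over the whole array 144 probe sets passed, 1.06%, with 0.670% higher and 0.390% lower in sanroque. With the day as a block 3 of the 9 passed, Egr2 higher and Nr4a1 and Nr4a2 lower in sanroque, against 852 or 6.27% of all (3.59% higher, 2.68% lower). The blocked fit estimates 3 coefficients from 4 arrays. Its p-values, here and below, therefore lean more on the variance pooled over probe sets than those without the block. The genotypes did not overlap in 6 of the 9, with 2 higher and 4 lower in sanroque, where 38.7% of all tested probe sets did not overlap, 21.0% higher and 17.7% lower.

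**Figure D1:**
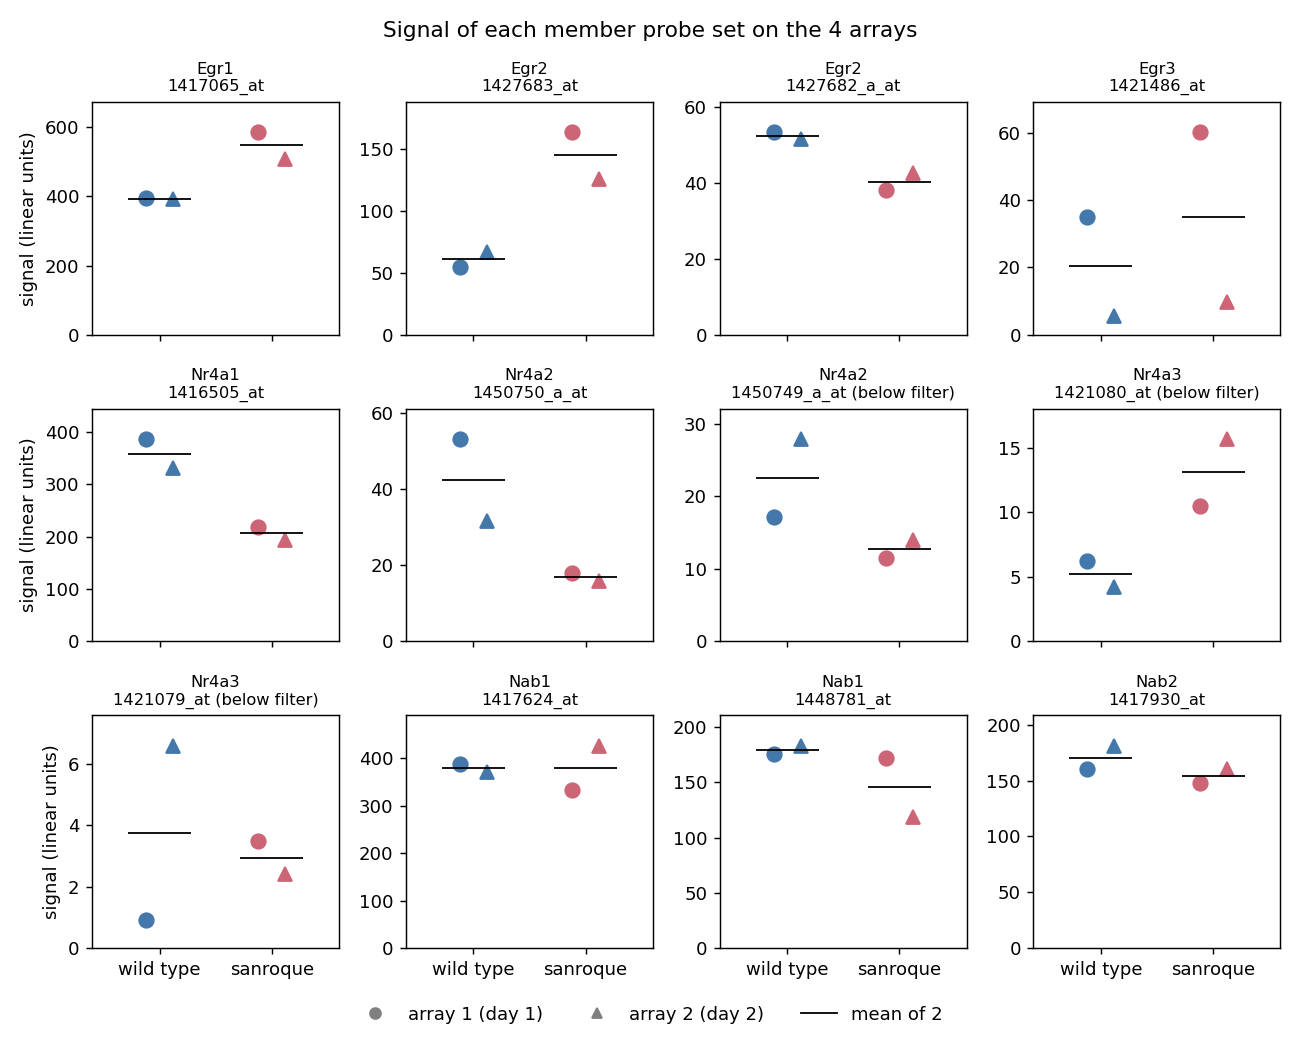
Signal (linear units, each vertical axis from 0) of the 12 member probe sets on 2 wild type and 2 sanroque arrays, with circles for day 1, triangles for day 2 and a line at the mean of 2. Egr1, Egr2 1427683_at and Nr4a3 1421080_at lie higher on both sanroque arrays. Nr4a1, both Nr4a2 probe sets, Egr2 1427682_a_at and Nab1 1448781_at lie lower on both. The Egr3 signal is lower on day 2 in both genotypes.

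Egr2 gave the clearest difference of the members, and its 2 probe sets disagreed. Probe set 1427683_at read 55.1 and 66.5 on the wild type arrays and 163.7 and 126.2 on the sanroque arrays. Both sanroque arrays thus lay above both wild type arrays. The mean went from 60.8 ± 8.06 to 145 ± 26.5 (SD, n = 2 each). On the scale of log2(signal + 6), which understates the change of dim probe sets, it rose by 1.17 (standard error 0.221, 95% interval 0.68 to 1.66, limma adjusted p = 0.0317). It was 1.47 within day 1 and 0.87 within day 2. Only 0.876% of tested probe sets had a change as high. Quantile normalization ended the call (adjusted p = 0.0621), as did fitting all probe sets with no filter (0.143), dropping the variance trend (0.192) or leaving out sanroque array 1 (0.182). In a fit with 1 array left out, here and below, the lone array of a genotype is assumed to vary like the other genotype. With the day as a block it had an adjusted p of 9.6e-05.

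The other Egr2 probe set, 1427682_a_at, was designed on the same GenBank record and read 53.3 and 51.4 in wild type against 38.1 and 42.5 in sanroque. Here both sanroque arrays lay below both wild type arrays. Its log2 change was -0.34 (95% interval -0.93 to 0.26) and did not pass (limma adjusted p = 0.78, and 0.495 with the day as a block). The log2 ratio of the first to the second probe set within an array, free of any scaling between arrays, was 0.05 and 0.37 in wild type and 2.10 and 1.57 in sanroque. The suffix _a_at marks a probe set that can report more than 1 transcript of a gene. Where each probe set lies on the transcript is not given in the sources used here.

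Egr1, the best known member of the family, read 395.8 and 391.1 in wild type and 585.7 and 509.2 in sanroque. The wild type arrays were nearly equal and both sanroque arrays were above them. The log2 difference of 0.47 (95% interval 0.09 to 0.85), 0.56 on day 1 and 0.38 on day 2, did not pass the test over all probe sets (limma adjusted p = 0.372, unadjusted 0.0201), and 9.16% of tested probe sets had a change as high. With the day as a block the adjusted p was 0.0504.

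Egr3, a close relative of Egr2 in T cells, differed more between the days than between the genotypes. The day cannot be told apart from other differences between the samples of each day. Its probe set read 35 in wild type and 60.2 in sanroque on day 1, and 5.6 and 9.8 on day 2. Within each day the sanroque array was the higher one, by 0.69 and 0.45 on the log2 scale, but the genotypes overlapped. From day 1 to day 2 the log2 signal differed by -1.82 in wild type and -2.07 in sanroque. Of 13579 tested probe sets 5, Egr3 included, were lower on day 2 by at least 1.82 in both genotypes, and none was higher by as much. The genotype difference of 0.57 had a 95% interval of -1.07 to 2.21 and did not pass (limma adjusted p = 0.894, and 0.446 with the block). Egr4, the remaining gene of the family, read between 6.5 and 15.9 on the 4 arrays, below the filter.

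Of the NR4A receptor genes, Nr4a1 and Nr4a2 had lower values in sanroque. Nr4a1 read 387.2 and 331.2 in wild type and 218.2 and 194.5 in sanroque. Every sanroque value was below every wild type value, and the means were 359.2 ± 39.6 and 206.4 ± 16.8 (SD, n = 2 each), a ratio of wild type to sanroque of 1.74. The log2 difference of -0.78 (standard error 0.18, 95% interval -1.18 to -0.38) was nearly the same within both days, at -0.81 and -0.75. It did not pass over all probe sets (limma adjusted p = 0.0828, unadjusted 0.00128) and did with the day as a block (0.000985). A change as low was seen in 1.74% of tested probe sets.

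Nr4a2, also called Nurr1, was dimmer. Its brighter probe set, 1450750_a_at, read 53.1 and 31.5 in wild type and 17.8 and 15.9 in sanroque, with no overlap. The wild type arrays differed from each other more than the sanroque arrays did. The log2 difference was -1.04 (95% interval -1.93 to -0.16, limma adjusted p = 0.397), and with the day as a block the adjusted p was 0.0499. The second probe set read 17.2 and 27.9 in wild type and 11.5 and 14 in sanroque, also without overlap and with a log2 difference of -0.58. It lay below the filter and, fitted without one, had a limma adjusted p of 0.837. Both probe sets thus had lower values in sanroque, neither past the test without the block.

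Nr4a3 gave no usable level. Probe set 1421080_at read 6.2 and 4.2 in wild type and 10.5 and 15.7 in sanroque, and 1421079_at read 0.9, 6.6, 3.5 and 2.4 in the same order. These lie at the 23.1 and 9.1 percentiles of mean signal. The first had a log2 difference of 0.76, and the second overlapped, with a difference of -0.06 whose sign turned with the pseudocount and with the array left out. Without the filter their limma adjusted p were 0.705 and 0.988.

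The corepressor genes gave no called difference, and the Nab1 probe sets differed in whether the genotypes overlapped. Nab1 is commonly described as constitutive and Nab2 as itself induced by EGR factors. The brighter Nab1 probe set, 1417624_at, read 387 and 371.1 in wild type and 332.4 and 426.5 in sanroque. The 2 sanroque arrays lay on either side of the wild type arrays. The difference was -0.01 on the log2 scale, with a 95% interval of -0.42 to 0.40 (limma adjusted p = 0.996). The second Nab1 probe set read 175.5 and 183.4 in wild type and 172.6 and 118.5 in sanroque, a difference of -0.31 (interval -0.79 to 0.16, limma adjusted p = 0.718). Within the days it was -0.02 and -0.61. Both sanroque arrays lay below both wild type arrays for this probe set, unlike for the brighter one. Nab2 read 160 and 181.3 in wild type and 147.6 and 160 in sanroque, with overlap, and its difference was -0.14 (interval -0.55 to 0.27, limma adjusted p = 0.894). None of the 3 corepressor probe sets passed, and their intervals together span -0.79 to 0.40.

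**Figure D2:**
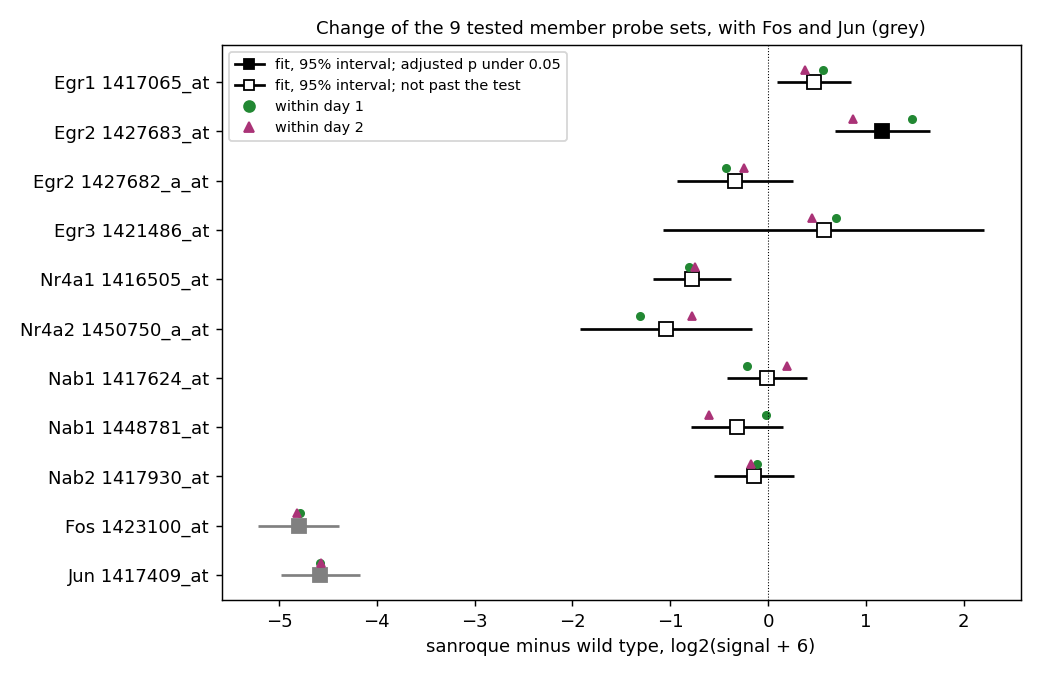
Sanroque minus wild type on the scale of log2(signal + 6) for the 9 tested member probe sets and, in grey, Fos and the brighter of 2 Jun probe sets. Squares with lines are the fit and its 95% interval, filled where the adjusted p was under 0.05, and small circles and triangles are the differences within day 1 and day 2. Egr1 (0.47) and Egr2 1427683_at (1.17) lie to the right of 0, and Egr2 1427682_a_at (-0.34), Nr4a1 (-0.78) and Nr4a2 (-1.04) to the left. Fos (-4.80) and Jun (-4.58) lie far to the left.

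Because the EGR and NR4A genes belong to the same immediate early response as AP-1, their changes were set beside those of Fos and Jun. Fos read 2393.2 and 2968 in wild type and 81 and 99.7 in sanroque, and fell by 4.80 on the log2 scale (95% interval -5.22 to -4.38, limma adjusted p = 5.58e-07). The brighter Jun probe set fell by 4.58 (interval -4.98 to -4.17, limma adjusted p = 5.58e-07), from 1425.4 and 1219.6 to 53.9 and 45.4. The dimmer one, 1448694_at, read 178.8 and 144.1 in wild type and 38.3 and 28.4 in sanroque and fell by 2.09 (interval -2.62 to -1.57, limma adjusted p = 0.00135). Both fell, by different amounts. The interval of Nr4a1 overlaps none of these 3, that of Nr4a2 overlaps that of the dimmer Jun probe set alone, and that of Egr1 lies above 0. Within an array the log2 ratio of Nr4a1 to Fos was -2.63 and -3.16 in wild type and 1.43 and 0.96 in sanroque, and that of Egr1 to Fos went from -2.60 and -2.92 to 2.85 and 2.35. Ratios between members were read in the same way. The ratio of Egr1 to Nr4a1 was 0.03 and 0.24 in wild type and 1.42 and 1.39 in sanroque, and that of Egr2 1427683_at to Nr4a1 was -2.81 and -2.32 against -0.41 and -0.62. For each of these ratios both sanroque arrays lay above both wild type arrays. They concern these probe sets and not the families, since the dimmer Egr2 probe set read lower in sanroque, Egr3 overlapped and Nr4a3 1421080_at read higher. The ratios show unequal change only, since signals of different probe sets are not on a common scale, and no test of the ratios was made.

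**Figure D3:**
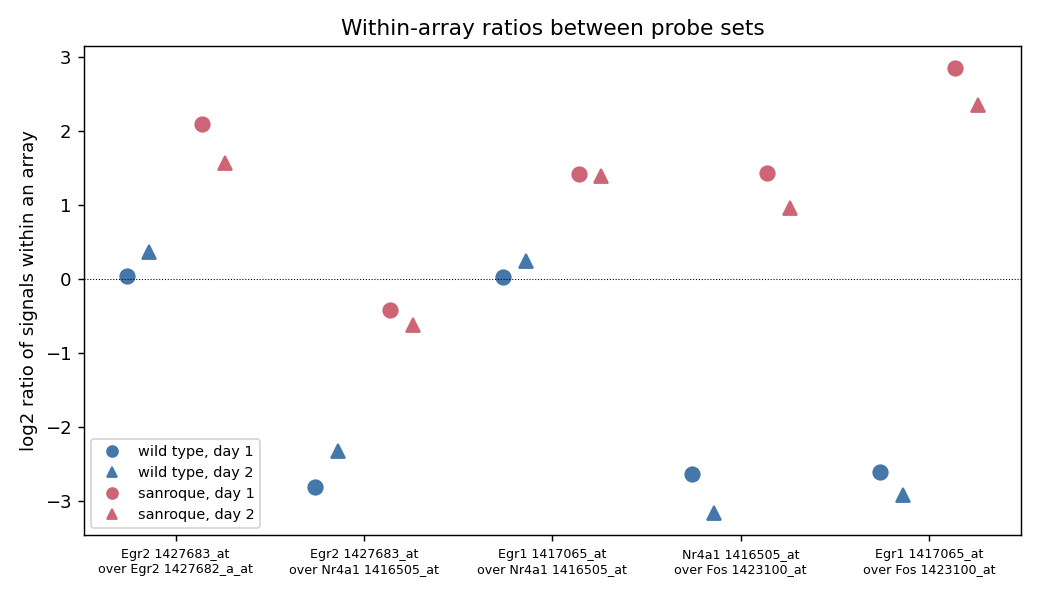
Log2 ratio of the signals of 2 probe sets within each array, with blue for wild type, red for sanroque, circles for day 1 and triangles for day 2. The height of a ratio depends on the probes and carries no meaning; the shift between genotypes is what is read, from 1.27 for Egr1 over Nr4a1 to 5.36 for Egr1 over Fos.

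On a list of other immediate early genes, 15 of 30 measured genes fell, none rose and 15 were not called, with a median log2 change of -1.07 beside 0.015 over all tested probe sets. With the day as a block 19 fell. Besides Fos and Jun, the AP-1 subunits Fosb (-1.75) and Junb (-2.76), the MAP kinase phosphatase Dusp1 (-3.14) and the NF-kB inhibitor Tnfaip3 (-3.18) fell, as did Ier2 (-1.21), Zfp36 (-1.24), Btg2 (-1.20), Klf4 (-1.87), Rgs2 (-2.25), Ppp1r15a (-2.80), Rhob (-1.43) and the heat shock genes Hspa1a (-3.42) and Hspa1b (-3.37). Without the variance trend Ier2 (limma adjusted p = 0.115), Zfp36 (0.101), Klf4 (0.0507), Rhob (0.128), Fosb (0.16) and Btg2 (0.253) were not called, and with no filter Klf4 (0.103), Rhob (0.0872), Fosb (0.193) and Btg2 (0.146) were not. Fosb was also not called without wild type array 1 (0.109) or sanroque array 2 (0.0673), nor Btg2 with median centring (0.101) or without sanroque array 1 (0.139). That list was chosen with the fall of some of these genes on these arrays already known. For Klf6 the brightest probe set had -0.89 without passing (limma adjusted p = 0.115, 0.000218 with the block).

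Among 25 measured genes that act between the antigen receptor and the EGR and NR4A promoters, 1 rose, none fell and 24 were not called, with a median of 0.073. Nfatc1, a calcium-dependent factor that is itself induced through the antigen receptor, read 188.8 and 150.9 in wild type and 336.4 and 352.1 in sanroque. It rose by 1.00 (limma adjusted p = 0.0298). That call ended with each array centred on its median (0.192), with no filter (0.0872), with no variance trend (0.21), and without wild type array 2 (0.0787), sanroque array 1 (0.0608) or sanroque array 2 (0.102). Srf and the ETS, CREB-type and MEF2 genes given here were named after their values were seen. Srf, the factor of the CArG box, read 123.7, 120.9, 121.3 and 124.6 (wild type first). Its ETS partners Elk4, Elk1 and Elk3 had 0.44, 0.17 and 0.30 without passing (limma adjusted p = 0.399, 0.954 and 0.798). Creb1 and Crem had -0.12 and 0.14, and Mef2a, Mef2c and Mef2d had 0.025, -0.34 and 0.064, none past the test.

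Of 21 measured genes known as bound or regulated by EGR or NR4A factors in T cells, 3 rose, none fell and 18 were not called, and the blocked fit called 6 higher. The median was 0.276. The inhibitory receptor Pdcd1 rose by 2.11 (limma adjusted p = 0.000797), the cytokine signalling inhibitor Socs3 by 1.36 (0.00441) and the adhesion receptor Cd44 by 0.95 (0.0307). Socs3 read 234.8 and 247.3 in wild type against 562.6 and 701.6 in sanroque and was not called without the variance trend (adjusted p = 0.101). Cd44 was not called in 5 of 12 other settings, among them without sanroque array 1 (adjusted p = 0.0684) or 2 (0.142). The block added Lag3 (1.72, adjusted p = 0.00159), Id3 (0.63, 0.0264) and Tnf (0.68, 0.0379), genes of an inhibitory receptor, an inhibitor of E proteins and a cytokine, named after their values were seen. The diacylglycerol kinase genes Dgka and Dgkz and the ubiquitin ligase gene Itch, which are linked to anergy, had -0.13, -0.09 and 0.14. They did not pass (limma adjusted p = 0.903, 0.948 and 0.898) and too were named after their values were seen. Cblb and Rnf128, also on the list, had no tested probe set, so no value is given for them.

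Of 24 measured genes raised by antigen receptor stimulation, 2 rose, none fell and 22 were not called, with a median of 0.247. These were the costimulatory receptor Icos (1.87, limma adjusted p = 0.00143) and the folate receptor family gene Izumo1r (1.00, 0.0172). Izumo1r was not called with median centring (0.294), without the variance trend (0.192) or without sanroque array 2 (0.0957), and Icos not without the variance trend (0.0635). The blocked fit called 8 higher and 3 lower. Both called genes are also on the marker lists below, Icos for follicular helper and Izumo1r for regulatory T cells, as is the target Pdcd1 for follicular helper T cells, so these counts are not separate from those lists. Without wild type array 1 the list had 5 calls and without sanroque array 2 it had 1. With median centring 1 was higher and 1 lower, and with the probe sets of a gene averaged 3 were higher and 1 lower. Those lower with the block were Myc (-0.51, adjusted p = 0.0441), Dusp2 (-0.49, 0.0338) and Phlda1 (-1.21, 0.00151), named after their values were seen.

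**Figure D4:**
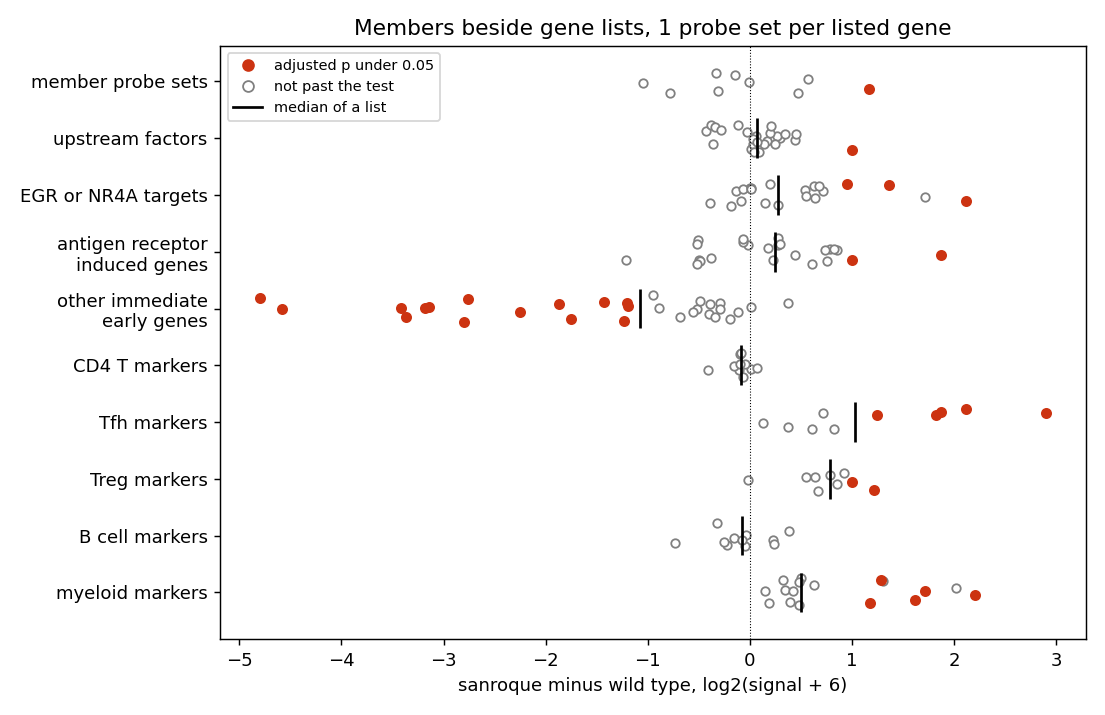
Sanroque minus wild type on the scale of log2(signal + 6) for the 9 tested member probe sets and for genes of 9 lists (Tfh, follicular helper; Treg, regulatory T cells), each gene by its brightest probe set, with filled red points for an adjusted p under 0.05 and a black line at the median of each list. The members lie between -1.04 and 1.17, while 28 of 30 other immediate early genes lie below 0.

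The CD4 cells are a mixture, and in such bulk RNA fewer cells of a type and less RNA per cell cannot be told apart. Signals were summed over all genes of a marker list on the array, including those below the filter. Markers of follicular helper T cells, in which Egr2 is known to be expressed, had 5 of 10 higher in sanroque and none lower (7 higher with the day as a block). Their summed signal was 656 and 621.7 in wild type and 1556 and 1454 in sanroque. Regulatory T cell markers had 2 of 9 tested higher and none lower (6 higher with the block), and the sums over 10 genes were 1353 and 1258 against 2107 and 2190. The 2 were Nrp1 and Izumo1r. Foxp3, named after its values were seen, was not called (limma adjusted p = 0.468, and 0.0971 with the block). Myeloid markers, of cells that also express Egr1 and Nr4a1, had 5 of 17 tested higher and none lower (8 higher with the block). Their sums over 19 genes were 3229 and 3612 against 6436 and 6630, of which Lyz1 alone gave 444.3 and 582.2 against 1671 and 1687.7. The 5 were Lyz1, Lyz2, S100a8, S100a9 and Ngp. Cd68, Cd14, Adgre1 and Itgax, named after their values were seen, were not called with or without the block. No B cell marker of 11 tested was called without the block and 1 was lower with it, and the sums over 13 genes were 3598 and 3912 against 3279 and 3863. None of 4 tested plasma cell markers was called with or without the block, and the sums over 6 genes were 1022 and 1116 against 1134 and 1024. Of 10 markers of CD8 T or NK cells 1 was higher (2 with the block), with sums of 709.7 and 632.8 against 718.9 and 791.7. Of 4 tested red cell or platelet markers none was called without the block and 2 were higher with it, with sums over 7 genes of 911 and 899.6 against 1295 and 1366. No gene of these lists was listed at 0 on any array. The part of any of these cells in the differences of Egr1, Egr2, Nr4a1 and Nr4a2 was not tested.

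Genes with profiles most like those of the members were sought for the brightest tested probe set of each member that differed by at least 1 on the log2 scale, which left Egr2 and Nr4a2. The measure was the Euclidean distance between log2 signals over the 4 arrays, each probe set centred on its own mean, among 12415 candidate probe sets. It is a description, with no test. Nearest to Egr2 1427683_at was Cxcr5, the chemokine receptor that guides T cells into B cell follicles, at a distance of 0.119. Its signals were 80.5 and 94.5 in wild type and 232.8 and 197.6 in sanroque. Eif4ebp1, a repressor of translation initiation, and Prg4 followed, both at 0.171, and neither passed (limma adjusted p = 0.354 and 0.0817). Eif4ebp1 was dim, at 11 and 16.5 in wild type. Nearest to Nr4a2 1450750_a_at were the antiproliferative gene Tob1 at 0.185, with 323.6 and 182 against 136.5 and 117.8, and the Kruppel-like factor gene Klf6 at 0.188. That Klf6 probe set, 1418280_at, is not the brightest of its gene and fell by 1.09 (limma adjusted p = 0.0471), a call lost under 6 of the 12 other settings, among them without wild type array 1 (0.104) or sanroque array 1 (0.096) or 2 (0.0818). The third was the immunoglobulin light chain segment Igkv15-103 at 0.244. Neither Tob1 nor Igkv15-103 passed (limma adjusted p = 0.171 and 0.254).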

How the data were processed

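The 4 arrays of CD4 cell RNA were grouped by genotype from the sample titles, 2 wild type and 2 sanroque. The deposited table gives 1 linear intensity per probe set and array, scaled by the authors to a common mean, as its trimmed means show; the summarising algorithm is not given in the sources used here. Signals were taken as log2(signal + 6). Control probe sets (64) and probe sets whose mean fell under the 40th percentile, 21.3, were not tested; 13579 were. Symbols came from the platform annotation, brought up to date with a RefSeq gene table; 20393 probe sets had 1 symbol, 691 several and 1555 besides controls none.

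Genotypes were compared by limma 3.58.1 in R 4.3.3 (lmFit and eBayes with a variance trend, two-sided, no covariate). The p-values were Benjamini-Hochberg adjusted over all tested probe sets. The fit was first run on simulated data with independent arrays, no day effect and a spread unrelated to signal. That check therefore does not cover a shared day or a variance trend. Per the file headers, same-numbered arrays share a hybridisation and scan day, and across probe sets their deviations from the genotype mean correlated with 0.392, so the number pairs the arrays; a wash protocol is recorded for day 1 alone, and the day 1 records speak of sorted T cells. Alternatives were this day as a block, other scalings, pseudocounts and filters, no variance trend, each array left out and, for lists, averaging the probe sets of a gene. Otherwise the brightest tested probe set stood for a listed gene.

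The named genes are all probe sets of the members, Egr4, listed genes past the test, Fos, Jun, Cd4, and the 3 nearest profiles; others are marked. The members and lists were chosen with earlier results of these data known. Plots were made with matplotlib 3.10.9 (Python 3.11.15).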

Additional observations from a re-analysis of the deposited data

How the results depend on the processing

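Except for Egr3 and the brighter Nab1 probe set, each tested member probe set kept its sign under every alternative in which it was fitted. With 1 array left out, the Egr3 probe set ranged from -0.465 to 1.602 and the brighter Nab1 probe set from -0.186 to 0.168. The number of member probe sets called was 1 in the fit as reported, 0 under quantile normalization, with no filter or with no variance trend, 3 with the day as a block (replicate block), and 0 to 1 with 1 array left out. In the limma fits with 0 calls, 3 or 4 members had an unadjusted p under 0.05 (4 with quantile normalization, no filter or sanroque array 1 left out, 3 with no variance trend). Over all probe sets the count of 144 became 56 with no filter, 47 without the variance trend and 852 with the day as a block, and 105 to 356 with 1 array left out.

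For the lists, the number of calls without the variance trend was 9 for other immediate early genes, 1 for EGR or NR4A targets, 0 for antigen receptor induced genes (11 at an unadjusted p under 0.05) and 0 for upstream factors (1 at an unadjusted p under 0.05). With the replicate block it was 6 for the targets and 11 for the induced genes. For the upstream factors it was 0 with median centring (1 at an unadjusted p under 0.05) and 0 without the filter (3), and 0 to 1 with 1 array left out. With the probe sets of a gene averaged the induced genes had 4 calls, and 1 to 5 with 1 array left out.

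The sign also turned for genes near 0: Cd4 had -0.076 with median centring and -0.085 to 0.115 with 1 array left out, and Srf had -0.004 under quantile normalization, -0.083 with median centring and -0.011 to 0.026 with 1 array left out. The dimmer Nr4a3 probe set had -0.06 as reported, 0.04 with a pseudocount of 1 and -0.496 to 0.373 with 1 array left out. Nr4a3 1421080_at moved from 0.76 to 1.18 with a pseudocount of 1 and to 0.34 with 24. Depth in the sense of signal over background limits Nr4a3, Nr4a2 and Egr3, for which no detection calls were used here.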
